A study of Mus musculus with 12 samples.

Results

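The collagen chain genes were examined in fibroblasts of the neonatal mouse heart that were reprogrammed with *Sox17* and *Erg*, and in matched control cultures. A row of the bulk RNAseq table counted as a collagen chain when its mouse symbol was Col, a number, a and a number, and when it held at least 10 counts summed over the 12 libraries. This rule found 44 genes of 35727 in the table, and it used no difference between groups. They were split by the assembly their chains form into 11 fibrillar chains, 8 basement membrane chains and 25 other chains. Of the 44, 43 passed the filter on low counts and were tested. *Col17a1*, a transmembrane chain of epithelial attachment sites, had between 3 and 9 counts per library and was not tested.

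By the study's methods, hearts of newborn mice were pooled, cells positive for the endothelial protein PECAM1 were removed in the experiments that characterised iECs, cells with the fibroblast surface protein THY1 were kept, and all cells were plated on collagen-coated plates. The methods name C57BL/6J mice and *Tcf21*-CreERT2 mice bred with *Rosa26*-tdTomato as sources, without saying which gave these libraries. In the second strain the *Tcf21* promoter drives an inducible Cre that marks fibroblasts and other cells of epicardial origin. The labels give EGM2, an endothelial growth medium, for all 12 libraries, and the methods describe isolation and infection in fibroblast medium. *Sox17*-*Erg* cultures received *Sox17* and *Erg*, a pair of transcription factors of the endothelial lineage, by retrovirus. Control cultures are labelled PMX, the name of the retroviral backbone, with no factor listed. RNA was taken at Day 3, Day 7 and 4 weeks, and each of the 6 groups held 2 libraries. No label says whether the 2 libraries came from separate isolations, so the tests measure only the spread between these libraries, which may be technical. No sort before RNA extraction is described for these libraries, and the labels call the *Sox17*-*Erg* cells iECs (induced endothelial cells).

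Collagens are extracellular proteins built from 3 chains wound into a triple helix. Fibrillar collagens such as types I, III and V form the fibrils that carry tension in heart tissue and are main products of fibroblasts. Basement membrane collagens, led by type IV, form sheets under endothelium and around muscle cells. FACIT collagens (fibril-associated collagens with interrupted triple helices, such as types XII and XIV) sit on the surface of fibrils, and type VI collagen forms beaded filaments around cells.

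Counts on genes ran from 19011635 to 41240449 per library. *Sox17* was between 0 and 0.416 CPM (a gene's share of the library's counts on a per-million scale, TMM-normalized) in control libraries and between 432 and 1040 CPM in *Sox17*-*Erg* libraries. *Erg* was between 0.0728 and 2.27 CPM in controls and between 17.1 and 65.2 CPM with the factors. Gene counts do not separate viral from endogenous transcripts. Of 10 endothelial markers, 9 were tested and 4, 5 and 7 were higher in *Sox17*-*Erg* at the 3 time points, against 7.19%, 9.48% and 11.9% of all genes. Their summed level was 22.4 ± 2.04 CPM in controls and 692 ± 116 CPM in *Sox17*-*Erg* at 4 weeks (SD, n = 2), while the endothelial junction gene *Cldn5* was at 3 counts or fewer in each 4-week library. At Day 3 and Day 7 the sum was 29.1 to 61.4 and 21.2 to 56.4 CPM in controls, and 314 to 438 and 416 to 628 CPM in *Sox17*-*Erg*. In controls *Cdh5* was at 0.91 and 14.3 CPM at Day 3 and 0.23 and 8.08 CPM at Day 7, the higher value each time in replicate 2. Fibroblast markers summed to between 5500 and 14400 CPM over all groups, but the single markers moved apart. At 4 weeks *Postn* and *Fbln2* were higher in *Sox17*-*Erg*, and *Dpt*, *Lum*, *Dcn*, *Pdgfra* and *Tcf21* were lower. *Postn* was at 1540 and 1350 CPM and *Fbln2* at 2600 and 2160 CPM in those *Sox17*-*Erg* libraries. *Dcn* was at 2850 and 2350 CPM in the 4-week controls and 224 and 301 CPM with *Sox17*-*Erg*.

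Collagen genes took a large share of the RNA in both conditions. They held 7.35% ± 0.622 of library counts in controls at Day 3, 6.71% ± 0.335 at Day 7 and 4.0% ± 0.128 at 4 weeks (SD, n = 2). In *Sox17*-*Erg* libraries they held 6.31% ± 1.1, 8.5% ± 0.37 and 4.71% ± 0.0662. The 2 conditions overlapped at Day 3, and the *Sox17*-*Erg* libraries were above both controls at Day 7 and at 4 weeks.

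At 4 weeks the basement membrane share of the collagen counts was above control and the fibrillar share below control in both *Sox17*-*Erg* libraries. Basement membrane chains took 42.0% ± 0.0115 of collagen counts in controls at Day 3 and 50.1% ± 2.27 at 4 weeks, and 41.1% ± 4.26 and 57.1% ± 3.59 with *Sox17*-*Erg* (SD, n = 2). Fibrillar chains took 52.5% ± 0.0767 and 38.9% ± 2.79 in controls, and 52.9% ± 4.46 and 32.4% ± 2.46 with *Sox17*-*Erg*. At 4 weeks the 2 *Sox17*-*Erg* libraries were at 59.6% and 54.5% basement membrane and the controls at 48.5% and 51.7%, so the groups did not overlap, and the fibrillar shares were 30.7% and 34.2% against 40.9% and 37.0%. At Day 7 the fibrillar shares met, at 42.9% and 47.1% in controls and 42.9% and 41.6% with *Sox17*-*Erg*, and the basement membrane shares were 49.1% and 46.1% against 49.9% and 52.1%. The share of the other chains overlapped at 4 weeks, at 10.6% and 11.3% in controls and 9.7% and 11.3% with *Sox17*-*Erg*. These shares were given no test.

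The sums of type VI and of FACIT genes lay on opposite sides of control. The 6 type VI genes summed to 1350 and 1770 CPM in the Day 3 controls, 2930 and 3300 CPM in the Day 7 controls, and 2900 and 2520 CPM in the 4-week controls. With *Sox17*-*Erg* they summed to 472 and 995, 1060 and 1490, and 583 and 803 CPM. The sum of the 9 FACIT genes lay above control, carried by the abundant *Col12a1* and *Col14a1*, while 7, 5 and 5 of the 9 genes had a log2 fold change below 0 at the 3 time points. It was at 1050 and 1110 CPM in the Day 3 controls, 649 and 628 CPM in the Day 7 controls and 533 and 408 CPM in the 4-week controls. In the matching *Sox17*-*Erg* libraries the sum was 1670 and 1880, 2830 and 2170, and 1860 and 1960 CPM. Neither sum overlapped between conditions at any of the 3 time points. In bulk samples fewer cells of a type and less RNA per cell cannot be told apart.

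**Figure D1:**
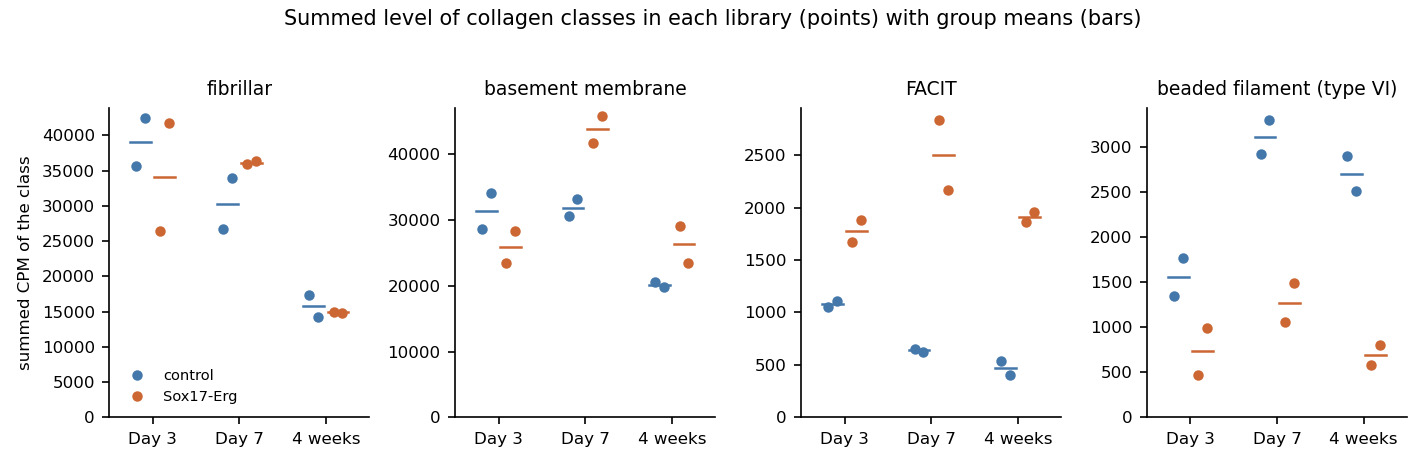
Summed level (CPM) of fibrillar, basement membrane, FACIT and type VI chains at Day 3, Day 7 and 4 weeks. Points are libraries and bars are group means of 2 libraries. The type VI sum lay below control and the FACIT sum above control at each time point, while fibrillar sums overlapped at Day 3 and 4 weeks.

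Each gene was then tested with edgeR's quasi-likelihood model over all 12 libraries and 15506 genes, with p-values adjusted by the Benjamini-Hochberg method. A gene is called here when that adjusted p was under 0.05. At Day 3, 1 chain was higher and 8 were lower in *Sox17*-*Erg*, or 2.3% and 18.6% of the 43 tested, against 7.19% and 5.13% of all genes. At Day 7, 4 were higher and 11 lower, or 9.3% and 25.6%, against 9.48% and 7.93% of all genes. DESeq2 called more chains higher at Day 7, as given with the alternatives below. At 4 weeks, 9 were higher and 11 lower, or 20.9% and 25.6%, against 11.9% and 11% of all genes. The median log2 fold change of the chains was -0.55, -0.28 and -0.21 at the 3 time points, and that of all genes was 0.01, 0.006 and -0.014.

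Of 11 fibrillar chains, 1 was lower at Day 3, 1 lower at Day 7 and 1 higher at 4 weeks, each 9.1% of the class, against 5.13%, 7.93% and 11.9% of all genes in those directions. DESeq2 called 3 fibrillar chains higher and 2 lower at Day 7, where it called 10.9% of all genes higher and 10.4% lower, and 2 in each direction at 4 weeks, where the shares of all genes were 13.1% and 12.1%. Of 8 basement membrane chains, 2 were lower at Day 3, 2 at Day 7 and 3 at 4 weeks, or 25.0%, 25.0% and 37.5%, against 5.13%, 7.93% and 11% of all genes. The 1 basement membrane chain that was higher at 4 weeks made 12.5% of the class, close to the 11.9% of all genes. DESeq2 called 2 of the 8 higher at each of the later time points, against its 10.9% and 13.1% of all genes.

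Of the 24 other chains tested, 1, 4 and 7 were higher at the 3 time points in turn, or 4.2%, 16.7% and 29.2%, against 7.19%, 9.48% and 11.9% of all genes. The lower ones numbered 5, 8 and 8, or 20.8%, 33.3% and 33.3%, against 5.13%, 7.93% and 11%. DESeq2 called 11 of the 24 lower at Day 3, where it called 8.49% of all genes lower. Across the time points 26 of the 43 chains were called at least once, or 60.5%, against 31% of all genes. Of the 43, 9 were called higher at least once and 17 lower, or 20.9% and 39.5%, against 16.7% and 14.6% of all genes. None of the chains was called in both directions, against 0.206% of all genes.

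Many of these calls rested on both libraries of a group. Leaving out 1 library leaves its group with 1, which is then assumed to vary like the other groups, and 15 of the 44 calls held whichever library was left out. They belonged to 8 chains: *Col4a3* and *Col4a4* at each time point, *Col10a1*, *Col14a1* and *Col28a1* at Day 7 and 4 weeks, and *Col18a1*, *Col6a3* and *Col6a6* at 4 weeks. The number of lower chains at Day 7 was 6, 4 and 2 without control replicate 1, control replicate 2 and *Sox17*-*Erg* replicate 1 of that day. The number of lower chains at Day 3 was 2, 3 and 2 without control replicate 1, control replicate 2 and *Sox17*-*Erg* replicate 1, and the 1 higher chain was lost without control replicate 2. At 4 weeks the lower chains numbered 5, 5 and 6 without control replicate 1, *Sox17*-*Erg* replicate 1 and *Sox17*-*Erg* replicate 2, and the higher chains 5 without either control or without *Sox17*-*Erg* replicate 1.

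**Figure D2:**
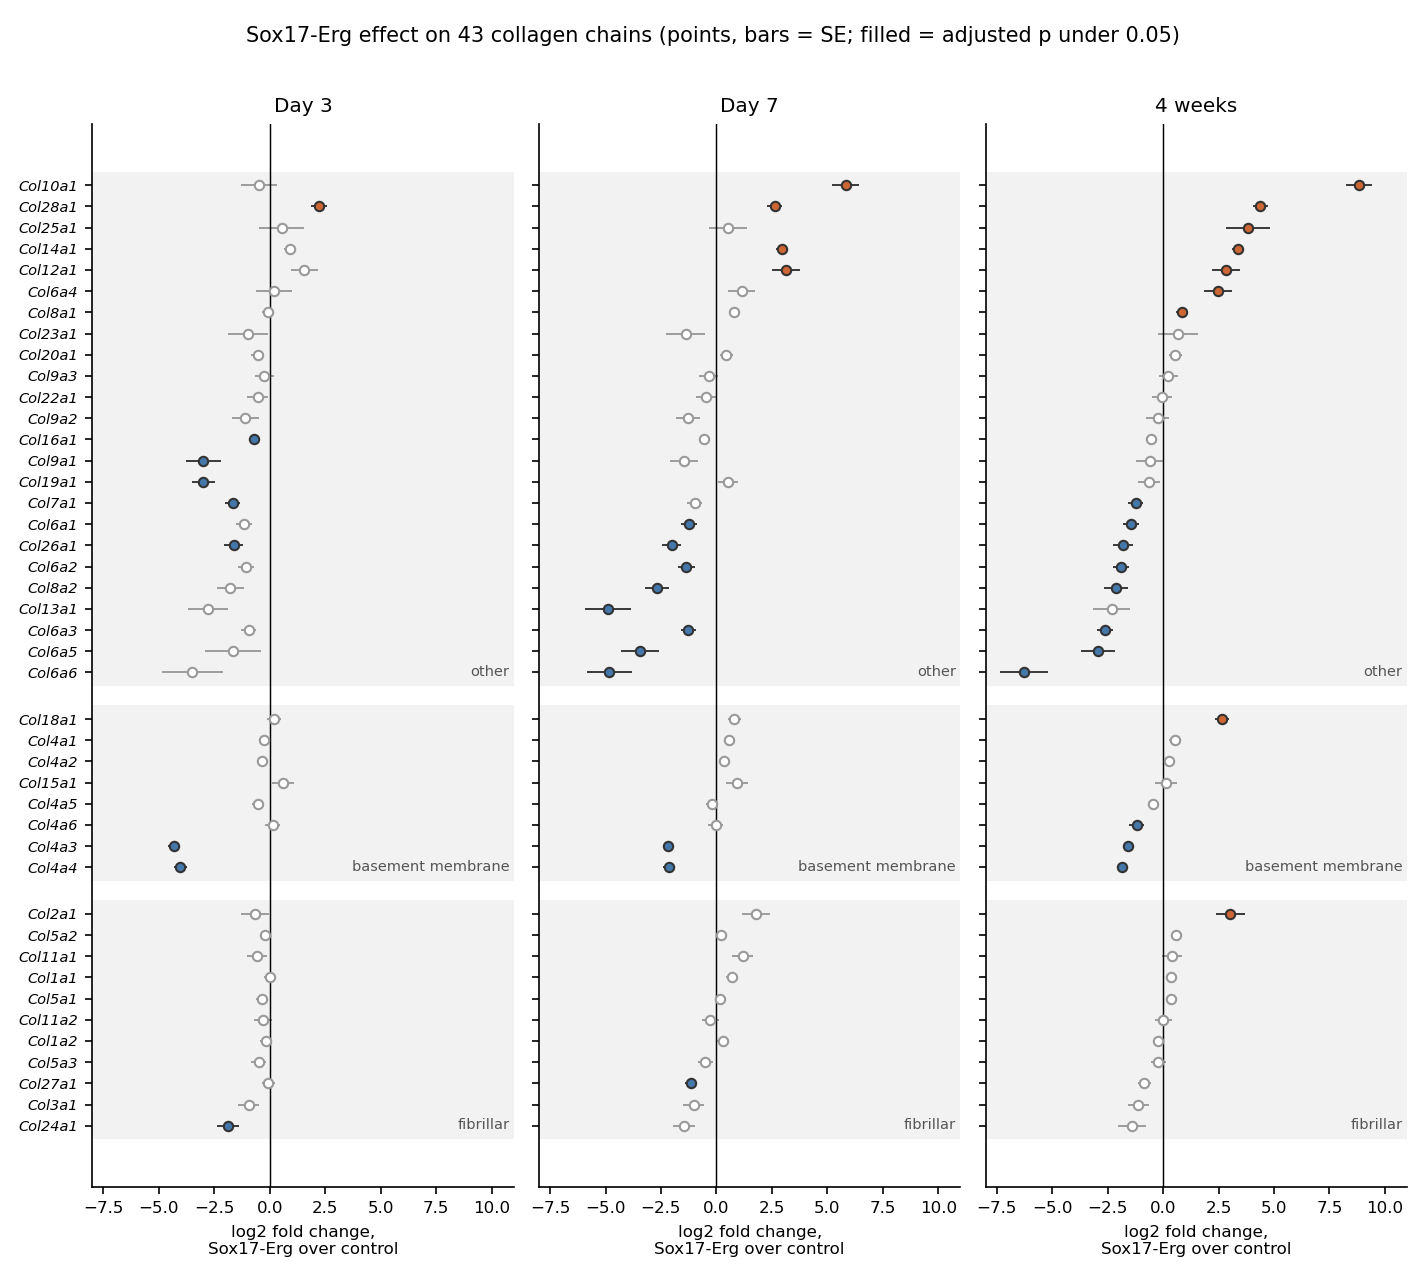
Log2 fold change of *Sox17*-*Erg* over control for the 43 tested chains at Day 3, Day 7 and 4 weeks, grouped by class and ordered by the 4-week value. Bars are standard errors of the fit, and filled points have an adjusted p under 0.05. All but 1 fibrillar point per panel are open, *Col4a3* and *Col4a4* stand left of 0 at each time point, and *Col10a1* reaches 8.83 at 4 weeks.

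Of the fibrillar types I, III and V, *Col3a1* of type III is described below. The 5 chains of types I and V were not called at any time point. At an unadjusted p under 0.05 edgeR counted 0, 1 and 1 of them at the 3 time points, and DESeq2 called 0, 1 and 1, each higher in *Sox17*-*Erg*, where it called 9.37%, 10.9% and 13.1% of all genes higher. *Col1a1*, the alpha1 chain of type I collagen, was at 14000 and 17100 CPM in the Day 3 controls, 9050 and 9580 CPM in the Day 7 controls, and 3720 and 3730 CPM in the 4-week controls. With *Sox17*-*Erg* it was at 11900 and 19200 CPM, 16200 and 14300 CPM, and 4590 and 5100 CPM. Both *Sox17*-*Erg* libraries were above both controls at Day 7 and 4 weeks, but the log2 fold changes of 0.71 ± 0.26 and 0.38 ± 0.26 (SE) had adjusted p = 0.091 and 0.34. *Col1a2*, its partner in the type I trimer, had log2 fold changes of -0.17 ± 0.26, 0.28 ± 0.26 and -0.21 ± 0.26 at the 3 time points.

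*Col5a1*, *Col5a2* and *Col5a3* encode type V collagen, which sets the diameter of type I fibrils. Their log2 fold changes lay between -0.51 and 0.57, and the smallest adjusted p was 0.061, for *Col5a2* at 4 weeks. *Col11a1*, a type XI chain that nucleates thin fibrils, had log2 fold changes of -0.57 ± 0.46, 1.19 ± 0.47 and 0.39 ± 0.46. Its Day 7 libraries were 764 and 933 CPM in controls and 1820 and 2050 CPM with *Sox17*-*Erg* (adjusted p = 0.11).

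*Col3a1*, the chain of type III collagen in compliant tissue, was below control on average at each time point. It was at 2960 and 4130, 5060 and 8670, and 5900 and 3810 CPM in controls of the 3 time points, and at 1060 and 2580, 2380 and 4400, and 2340 and 2110 CPM with *Sox17*-*Erg*. No control library overlapped a *Sox17*-*Erg* library of its time point. Its log2 fold changes were -0.96, -1.02 and -1.12, each with an SE of 0.47, and none was called (adjusted p = 0.21, 0.18 and 0.12).

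A few minor fibrillar chains supplied the calls of the class. *Col24a1* was lower at Day 3 (log2 fold change -1.87 ± 0.49, adjusted p = 0.04), *Col27a1* was lower at Day 7 (-1.15 ± 0.29, adjusted p = 0.024), and *Col2a1*, the chain of cartilage type II collagen, was higher at 4 weeks (3.03 ± 0.66, adjusted p = 0.011). *Col2a1* held 29 and 10 counts in the 4-week controls and 149 and 114 counts with *Sox17*-*Erg*. These 3 calls were lost without single libraries. The *Col24a1* call was lost without any Day 3 library or control replicate 2 of Day 7 (adjusted p = 0.053 to 0.26, log2 fold change -2.3 to -1.59). *Col27a1* lost its call without control replicate 2 or *Sox17*-*Erg* replicate 1 of Day 7 (0.15 to 0.18, -0.85 to -0.68), and *Col2a1* without control replicate 2 or *Sox17*-*Erg* replicate 1 of 4 weeks (0.056 to 0.067, 2.71 to 2.85).

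Within the basement membrane class, the abundant and the rarer type IV chains are described apart. *Col4a1* and *Col4a2* assemble into the type IV trimer of nearly all basement membranes. Per kb of transcript, *Col4a1* was the most abundant collagen chain in 5 of the 6 groups and second to *Col1a1* in *Sox17*-*Erg* at Day 3. It was at 17300 and 20800 CPM in controls at Day 3 and 14500 and 17600 CPM with *Sox17*-*Erg*. At Day 7 it was at 16700 and 18200 CPM against 25200 and 27100 CPM, and at 4 weeks at 10700 and 10300 CPM against 17100 and 13200 CPM. Both *Sox17*-*Erg* libraries were above both controls at the later time points. The log2 fold changes of -0.25, 0.58 and 0.53, each ± 0.24, were not called (adjusted p = 0.52, 0.13 and 0.15). *Col4a2* had -0.33, 0.32 and 0.29, each ± 0.22, with adjusted p between 0.35 and 0.39.

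*Col4a3* and *Col4a4* make, with *Col4a5*, the type IV trimer of the kidney filter and inner ear. *Col4a3* was at 51.2 and 40.6 CPM in controls at Day 3 and at 2.33 and 2.28 CPM with *Sox17*-*Erg*, a 19.9-fold difference (log2 fold change -4.31 ± 0.27, adjusted p = 0.00027). At Day 7 it was at 157 and 149 CPM against 24.2 and 42.4 CPM (-2.20 ± 0.23, adjusted p = 0.00044), and at 4 weeks at 280 and 283 CPM against 92.0 and 95.7 CPM (-1.58 ± 0.22, adjusted p = 0.0012). *Col4a4* was at 95.1 and 62.8 CPM in controls at Day 3 and 4.5 and 5.17 CPM with *Sox17*-*Erg* (-4.03 ± 0.29, adjusted p = 0.00042). It was at 257 and 190 against 41.9 and 59.8 CPM at Day 7, and 316 and 308 against 76.2 and 99.8 CPM at 4 weeks (-2.14 ± 0.26 and -1.83 ± 0.25, adjusted p = 0.00088 and 0.0012). Both genes increased with time in both conditions, and neither overlapped between conditions at any time point.

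*Col4a3* (chr1:82586921-82722059, plus strand) and *Col4a4* (chr1:82448423-82586849, minus strand) are annotated head to head in GRCm38, with 71 bases between their starts. The strip at chr1:82586850-82586920 is shown because both genes that lie on either side of it were lower at each time point. It is given on the minus strand from RefSeq's GRCm38.p6 promoter table, in the direction of *Col4a4*, and it holds no annotated exon:
*Col4a3*/*Col4a4* strip: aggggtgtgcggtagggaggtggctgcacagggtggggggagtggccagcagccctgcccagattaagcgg

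The strip is 69% G and C. It was searched on both strands for ACAAT, a core of SOX sites, and GGAAG, a core of ETS sites (*Erg* is an ETS factor), and it holds neither. Of 32851 promoters in the table, 8.65% hold ACAAT and 27.4% hold GGAAG in the 71 bases before the start. These matches are descriptions of letters and not of bound sites.

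*Col4a5*, which also assembles with *Col4a6*, had log2 fold changes of -0.55 ± 0.25, -0.20 ± 0.25 and -0.44 ± 0.25 and was not called. *Col4a6* was level with control at Day 3 and Day 7 (0.13 ± 0.33 and -0.03 ± 0.33) and was lower at 4 weeks, at 29.9 and 25.1 CPM against 78.3 and 47.2 CPM (-1.19 ± 0.34, adjusted p = 0.032). This call was lost without control replicate 1 or either *Sox17*-*Erg* library of 4 weeks (adjusted p = 0.1 to 0.21, log2 fold change -1.33 to -0.78).

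The multiplexins *Col15a1* and *Col18a1* carry heparan or chondroitin sulfate chains in basement membranes, and the C-terminal fragment of *Col18a1* is endostatin. *Col18a1* was at 104 and 121 CPM in controls at Day 3 and 128 and 129 CPM with *Sox17*-*Erg*. At Day 7 the values were 174 and 91.4 against 297 and 168 CPM and overlapped, and at 4 weeks they were 50.3 and 50.9 against 314 and 326 CPM. The log2 fold changes were 0.19 ± 0.31, 0.81 ± 0.31 and 2.66 ± 0.32, and the 4-week difference, 6.33-fold, was called (adjusted p = 0.00058). *Col15a1* was at 100 and 280 CPM in controls and 138 and 283 CPM with *Sox17*-*Erg* at 4 weeks, where the libraries of each group spread widely, and was not called at any time point (adjusted p = 0.46, 0.24 and 0.87).

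Of the 6 type VI chains, edgeR called 0 at Day 3, against 5.13% of all genes lower, with 4 lower at an unadjusted p under 0.05. DESeq2 called 4 lower at Day 3, against 8.49% of all genes by DESeq2. Both tools called 5 lower at Day 7, or 83.3%, against 7.93% of all genes by edgeR and 10.4% by DESeq2. At 4 weeks both called 5 lower, against 11% and 12.1% of all genes, and 1 higher, or 16.7%, against 11.9% and 13.1%. Its main trimer holds *Col6a1*, *Col6a2* and *Col6a3*, and each was below control at Day 3 without a call, by 2.24-, 2.12- and 1.95-fold (log2 fold changes -1.16 ± 0.36, -1.08 ± 0.37 and -0.96 ± 0.34, adjusted p = 0.065, 0.087 and 0.095). At Day 7 each was called lower (-1.25 ± 0.36, -1.35 ± 0.37 and -1.28 ± 0.34, adjusted p = 0.043, 0.036 and 0.033). At 4 weeks the differences were -1.46 ± 0.36, -1.90 ± 0.38 and -2.63 ± 0.36 (adjusted p = 0.019, 0.007 and 0.001). The 4-week *Col6a3* libraries were at 1090 and 1140 CPM in controls and 124 and 235 CPM with *Sox17*-*Erg*. Those of *Col6a1* were at 1130 and 833 CPM against 334 and 378 CPM, and those of *Col6a2* at 621 and 510 CPM against 122 and 182 CPM. No group overlapped its control at 4 weeks.

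The Day 7 calls of the type VI trimer were close to the threshold. *Col6a1* lost its Day 7 call without either Day 3 control, any Day 7 library other than *Sox17*-*Erg* replicate 2, control replicate 1 of 4 weeks or either 4-week *Sox17*-*Erg* library (adjusted p = 0.053 to 0.27, log2 fold change -1.42 to -0.97). *Col6a2* lost it without control replicate 1 of Day 3, either Day 7 control, control replicate 1 of 4 weeks or *Sox17*-*Erg* replicate 1 of Day 7 (0.05 to 0.25, -1.44 to -1.04). *Col6a3* lost it without control replicate 1 of Day 3 or any Day 7 library (0.051 to 0.19, -1.39 to -1.21). At 4 weeks *Col6a1* lost its call without control replicate 1 or either *Sox17*-*Erg* library (0.066 to 0.12, -1.58 to -1.23), and *Col6a2* without *Sox17*-*Erg* replicate 1 (0.068, -1.65). The *Col6a3* call at 4 weeks held without any library.

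The promoter side of *Col6a3* is shown as the chain of the 3 main type VI ones with the largest difference at 4 weeks. At Day 3 its difference was the smallest of the 3, and at Day 7 that of *Col6a2* was larger. The 250 bases before its start, at chr1:90843972-90844221 on the minus strand (RefSeq, GRCm38.p6), hold GGAAG at 3 places, of which 2 overlap, and no ACAAT. Capitals mark the matches:
*Col6a3*: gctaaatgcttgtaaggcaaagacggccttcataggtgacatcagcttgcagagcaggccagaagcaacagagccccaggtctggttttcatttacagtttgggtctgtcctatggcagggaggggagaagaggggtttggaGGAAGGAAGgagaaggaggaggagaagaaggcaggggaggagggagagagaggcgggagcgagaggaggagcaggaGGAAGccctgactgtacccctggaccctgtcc

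The 3 other type VI chains can take the place of *Col6a3* in the trimer and were rare. *Col6a6* held 1350 and 431 counts in the 4-week controls and 6 and 12 counts with *Sox17*-*Erg*, the largest called decrease of any chain at 4 weeks (log2 fold change -6.28 ± 1.07, adjusted p = 0.0033). At Day 7 it was at 5.41 and 27.1 CPM against 0.11 and 1.14 CPM (-4.83 ± 1.0, adjusted p = 0.011). The Day 7 call was lost without control replicate 2 or *Sox17*-*Erg* replicate 1 (adjusted p = 0.06 to 0.076, log2 fold change -3.82 to -3.24). *Col6a5* was at 5.22 and 6.51 CPM against 0.607 and 0.439 CPM at Day 7, and 27.7 and 22.4 CPM against 0.602 and 6.0 CPM at 4 weeks, where the 2 *Sox17*-*Erg* libraries differed widely (-3.45 ± 0.87 and -2.93 ± 0.77, adjusted p = 0.026 and 0.024). Its Day 7 call was lost without any library of that day (0.05 to 0.15, -3.72 to -3.28) and its 4-week call without either control (0.053 to 0.089, -3.07 to -2.77). *Col6a4* went the other way at 4 weeks, at 10 and 4 counts in controls and 37 and 30 counts with *Sox17*-*Erg* (2.49 ± 0.63, adjusted p = 0.02), and lost its call without any 4-week library (0.058 to 0.1, 2.26 to 2.86).

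Like the sum of the type VI chains, the sum of mesothelial and epicardial markers lay below control at each time point. Of these 8 markers, 1, 4 and 7 were lower in *Sox17*-*Erg* at the 3 time points, against 5.13%, 7.93% and 11% of all genes. Their summed levels were 326 to 836, 571 to 1090 and 928 to 1470 CPM in controls and 155 to 253, 240 to 335 and 168 to 266 CPM with the factors. None was at 3 counts or fewer over a group. Of 10 fibroblast markers, 1, 4 and 5 were lower and 0, 1 and 2 higher, where 7.19%, 9.48% and 11.9% of all genes were higher. The fibroblast marker sums were 11300 to 13300, 6930 to 9640 and 7630 to 8430 CPM in controls at the 3 time points. In *Sox17*-*Erg* they were 10200 to 14400, 8910 to 11100 and 5500 to 6030 CPM. Of 10 cardiomyocyte markers, 2, 3 and 7 were lower. At 4 weeks the 10 summed to 1090 to 1360 CPM in controls and 687 to 688 CPM with the factors, and most of that was *Tnnt2*. *Tnnt2* was at 930 and 1100 CPM against 665 and 642 CPM, and it was not called there (-0.63 ± 0.28, adjusted p = 0.14). The part of these cell types in the collagen differences was not tested.

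Among FACIT collagens, *Col12a1* and *Col14a1* were higher. *Col14a1* was at 479 and 636 CPM in the Day 3 controls, 182 and 232 CPM in the Day 7 controls and 95.6 and 82.9 CPM in the 4-week controls. With *Sox17*-*Erg* it was at 823 and 1260, 1670 and 1540, and 763 and 1090 CPM, above both controls each time. The log2 fold change was 0.90 ± 0.26 at Day 3 (adjusted p = 0.052), 2.96 ± 0.28 at Day 7 (adjusted p = 0.00028) and 3.38 ± 0.28 at 4 weeks (adjusted p = 7.8e-05), or 10.4-fold. Per kb of transcript it ranked 13 of 44 in controls at Day 3 and 18 at 4 weeks, and 10 and 9 with *Sox17*-*Erg*.

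*Col12a1*, which binds type I fibrils in tissue under load, was at 234 and 116, 110 and 35.6, and 126 and 97.1 CPM in controls, and at 663 and 369, 925 and 370, and 906 and 678 CPM with *Sox17*-*Erg*. The groups did not overlap at any time point. The log2 fold changes were 1.56 ± 0.60, 3.15 ± 0.64 and 2.83 ± 0.63 (adjusted p = 0.12, 0.011 and 0.011). The Day 7 call was lost without control replicate 2 or *Sox17*-*Erg* replicate 1 (adjusted p = 0.057 to 0.073, log2 fold change 2.34 to 2.56), and the 4-week call without either control or *Sox17*-*Erg* replicate 1 (0.06 to 0.074, 2.6 to 3.03).

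*Col16a1*, *Col9a1* and *Col19a1*, all FACIT chains, were lower at Day 3. *Col16a1*, found near fibrils and basement membranes, was at 324 and 349 CPM in controls and 178 and 236 CPM with *Sox17*-*Erg* (-0.70 ± 0.18, adjusted p = 0.034), and its differences of -0.55 ± 0.17 and -0.53 ± 0.17 at the later times were not called. *Col9a1*, a chain of cartilage type IX collagen, was at 1.53 and 1.9 CPM against 0.202 and 0.215 CPM (-3.00 ± 0.79, adjusted p = 0.04). *Col19a1* was at 3.71 and 2.59 CPM against 0.304 and 0.474 CPM (-2.99 ± 0.51, adjusted p = 0.0089). The *Col16a1* call was lost without either Day 3 control, *Sox17*-*Erg* replicate 1 of Day 3 or *Sox17*-*Erg* replicate 2 of 4 weeks (adjusted p = 0.051 to 0.22, log2 fold change -0.75 to -0.55). *Col9a1* lost it without any Day 3 library or either Day 7 control (0.053 to 0.23, -3.15 to -2.88), and *Col19a1* without replicate 1 of either Day 3 group (0.063 to 0.093, -2.76 to -2.71). The remaining FACIT chains, *Col9a2*, *Col9a3*, *Col20a1* and *Col22a1*, were not called at any time point.

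**Figure D3:**
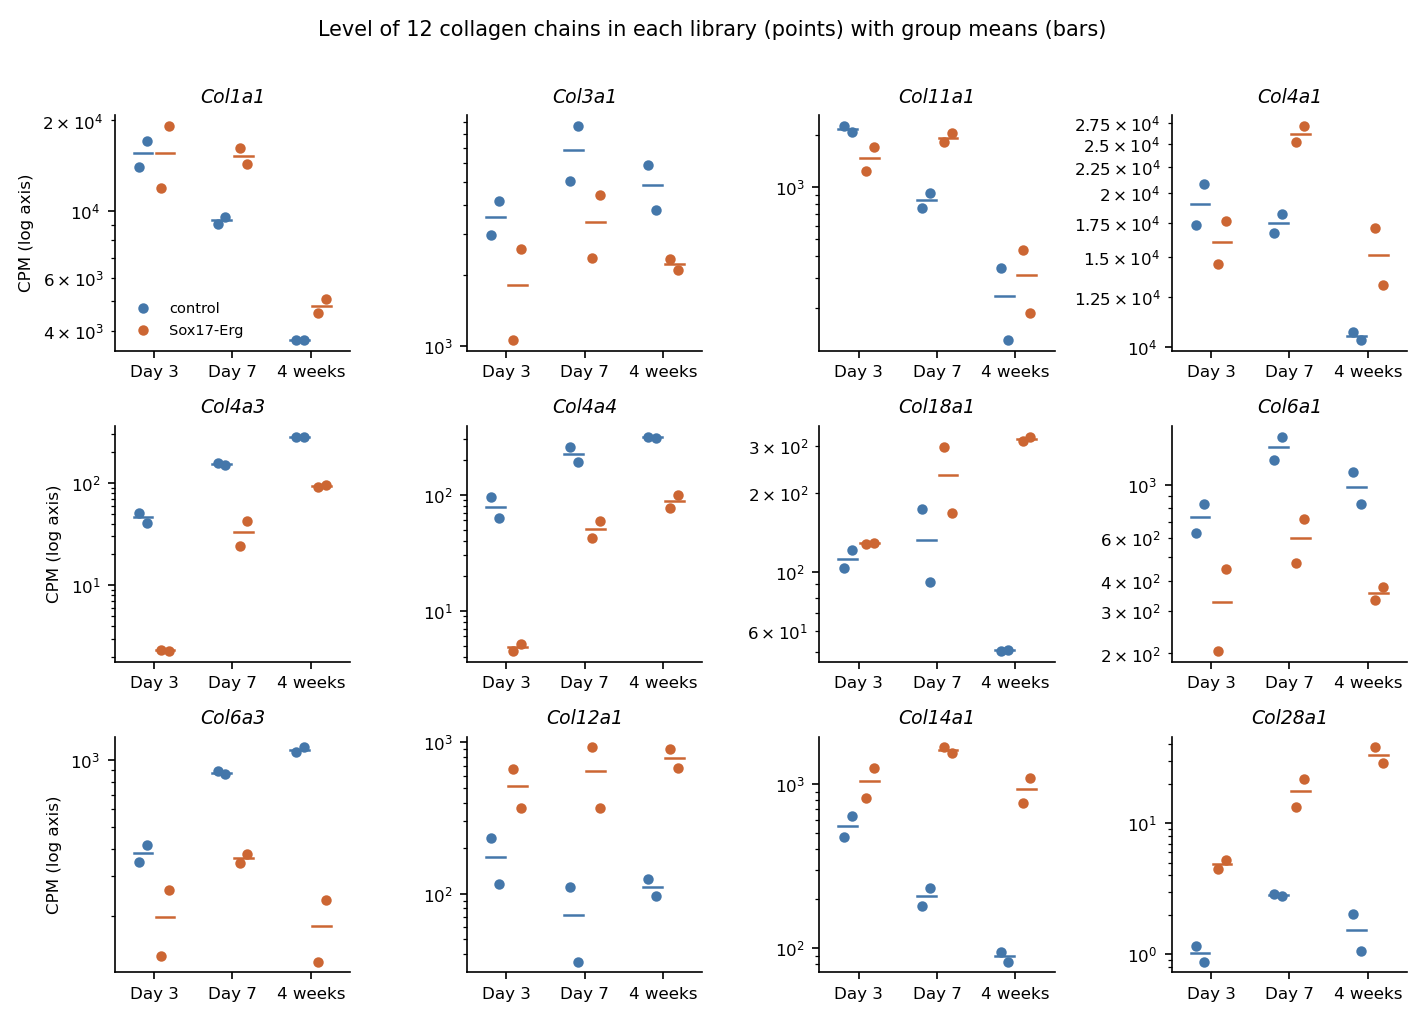
Level in CPM, on log axes that differ between panels, of 12 chains in each library at Day 3, Day 7 and 4 weeks. Points are libraries and bars are group means of 2 libraries. *Col4a3* and *Col4a4* rose in both conditions with *Sox17*-*Erg* below control, *Col14a1* fell in control while its change in *Sox17*-*Erg* was not called, and *Col18a1* separated at 4 weeks.

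The short-chain network collagens gave the largest increase of all chains. *Col10a1* encodes type X collagen, best known from hypertrophic cartilage. Its control libraries held 9 and 1 counts, 3 and 1 counts, and 4 and 1 counts at the 3 time points. The *Sox17*-*Erg* libraries held 3 and 3, 188 and 98, and 1301 and 759 counts. The ratio of pooled normalized counts was 61.7 at Day 7 (95% exact interval 23.8 to 228) and 481 at 4 weeks (206 to 1480), where the intervals cover counting error only. The fitted log2 fold changes of 5.84 ± 0.61 and 8.83 ± 0.59 (adjusted p = 0.00045 and 2.5e-05) depend on the prior count added to the near-empty controls. At 4 weeks *Col10a1* was at 46.0 and 28.1 CPM in *Sox17*-*Erg* libraries.

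*Col10a1* (chr10:34389981-34397085, plus strand) lies within *Nt5dc1* on the opposite strand. *Nt5dc1* was between 4.21 and 8.26 CPM in controls and between 4.48 and 6.22 CPM with *Sox17*-*Erg*, with a log2 fold change of -0.40 ± 0.16 at 4 weeks (adjusted p = 0.1). Of 10 cartilage markers, 7 were tested, and 0, 1 and 1 were higher and 1, 0 and 2 lower at the 3 time points. The shares of all genes were 7.19%, 9.48% and 11.9% higher and 5.13%, 7.93% and 11% lower. The cartilage proteoglycan *Acan* was higher at Day 7 and 4 weeks (4.90 ± 0.71 and 7.74 ± 0.95, adjusted p = 0.0021 and 0.0006), and the cartilage regulator *Sox9* was lower at Day 3 and 4 weeks (-2.06 ± 0.48 and -2.01 ± 0.49, adjusted p = 0.028 and 0.017). The cartilage matrix gene *Comp* was lower at 4 weeks (-2.86 ± 0.76, adjusted p = 0.025). *Ucma* and *Snorc* were at 3 counts or fewer in every library. The summed cartilage level was between 22.9 and 56.9 CPM in *Sox17*-*Erg* and between 65.5 and 155 CPM in controls. Much of this sum was *Sox9*, at 9.49 to 45.1 CPM in *Sox17*-*Erg* and 44.2 to 148 CPM in controls. The part of such cells in the *Col10a1* result was not tested.

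The 250 bases before the *Col10a1* start, at chr10:34389731-34389980 on the plus strand (RefSeq, GRCm38.p6), are shown because this chain rose the most. GGAAG occurs 3 times on the 2 strands (as CTTCC where it is on the other) and ACAAT does not occur. Capitals mark the matches:
*Col10a1*: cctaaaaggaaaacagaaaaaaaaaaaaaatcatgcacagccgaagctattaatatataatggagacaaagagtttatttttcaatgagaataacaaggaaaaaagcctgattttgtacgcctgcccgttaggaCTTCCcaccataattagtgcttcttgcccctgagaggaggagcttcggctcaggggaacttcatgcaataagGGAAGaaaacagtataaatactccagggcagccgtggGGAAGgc

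*Col8a1* and *Col8a2* form the hexagonal networks of type VIII collagen made by endothelial and smooth muscle cells. *Col8a1* was at 995 and 1370 CPM in controls and 2180 and 2040 CPM with *Sox17*-*Erg* at 4 weeks (0.84 ± 0.26, adjusted p = 0.044), and this call was lost without 9 of the 12 libraries (adjusted p = 0.051 to 0.24, log2 fold change 0.63 to 1.09). Of the 12, only control replicates 1 and 2 of Day 7 and *Sox17*-*Erg* replicate 2 of Day 3 could be left out without losing it. *Col8a2*, far rarer, went the other way. It was at 3.07 and 2.93 against 0.441 and 0.483 CPM at Day 7 (-2.69 ± 0.55, adjusted p = 0.011) and 3.16 and 2.89 against 0.566 and 0.815 CPM at 4 weeks (-2.12 ± 0.53, adjusted p = 0.019). The calls were lost without *Sox17*-*Erg* replicate 1 of Day 7 (0.096, -2.62) and without any 4-week library (0.051 to 0.12, -2.43 to -1.89).

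*Col28a1*, a chain with von Willebrand factor domains known from peripheral nerve, was called higher at each time point. It was at 1.16 and 0.879 CPM in controls and 4.45 and 5.26 CPM with *Sox17*-*Erg* at Day 3, 2.88 and 2.81 against 13.4 and 21.7 CPM at Day 7, and 2.03 and 1.06 against 37.9 and 28.6 CPM at 4 weeks. The log2 fold changes were 2.23 ± 0.36, 2.62 ± 0.33 and 4.39 ± 0.35 (adjusted p = 0.0072, 0.0011 and 6.3e-05). The Day 3 call was lost without control replicate 2 (adjusted p = 0.069, log2 fold change 2.02). Of 7 Schwann cell markers, 4 were tested, and 1, 0 and 1 were lower at the 3 time points and 0 higher, where 5.13%, 7.93% and 11% of all genes were lower. Their summed level was 17.2 to 26.4 CPM in *Sox17*-*Erg* libraries and 29.7 to 38.5 CPM in controls. Most of it was *Cnp*, at 15.5 to 24.7 CPM and 26.7 to 35.2 CPM.

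The 250 bases before the *Col28a1* start, at chr6:8192618-8192867 on the minus strand (RefSeq, GRCm38.p6), are shown because it was the only chain called higher at each time point. They hold ACAAT once and GGAAG once, in capitals:
*Col28a1*: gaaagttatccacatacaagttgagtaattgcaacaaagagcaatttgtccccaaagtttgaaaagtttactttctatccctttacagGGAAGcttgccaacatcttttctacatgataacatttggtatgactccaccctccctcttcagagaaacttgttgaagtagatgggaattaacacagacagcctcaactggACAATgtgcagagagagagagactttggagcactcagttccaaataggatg

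The table holds 38 promoters for 35 of the 44 chains. Of these, 5.26% hold ACAAT and 73.7% hold GGAAG in the 250 bases before the start, against 27.7% and 64.1% of all 32851 promoters. *Col14a1* and *Col12a1* have no entry.

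Of the remaining chains, *Col7a1*, which makes the anchoring fibrils under epithelia, was lower at Day 3 and 4 weeks (-1.67 ± 0.33 and -1.24 ± 0.33, adjusted p = 0.016 and 0.026). Its calls were lost without either control or *Sox17*-*Erg* replicate 1 of Day 3 (0.07 to 0.15, -1.72 to -1.47) and without any library of 4 weeks (0.056 to 0.14, -1.35 to -1.11). *Col26a1* was lower at each time point (-1.63 ± 0.43, -2.02 ± 0.42 and -1.80 ± 0.44, adjusted p = 0.042, 0.012 and 0.018). Its Day 3 call was lost without any library of Day 3 or 4 weeks (0.055 to 0.2, -1.75 to -1.53), its Day 7 call without control replicate 2 or *Sox17*-*Erg* replicate 1 (0.08 to 0.11, -1.61 to -1.28), and its 4-week call without control replicate 1 or either *Sox17*-*Erg* library (0.062 to 0.12, -1.97 to -1.67).

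Among the transmembrane chains, *Col13a1*, found at cell adhesions and the neuromuscular junction, was lower at Day 7, with 42 and 19 counts in controls and 0 and 2 counts with *Sox17*-*Erg*. The pooled ratio of control over *Sox17*-*Erg* was 35.4 (95% exact interval 9.38 to 299, counting error only; fitted log2 fold change -4.89 ± 1.05, adjusted p = 0.013). The call was lost without replicate 1 of either Day 7 group (adjusted p = 0.053 to 0.11, log2 fold change -4.27 to -3.69). *Col25a1* was higher at 4 weeks, with 1 and 5 counts in controls and 16 and 66 counts with *Sox17*-*Erg* (3.83 ± 0.98, adjusted p = 0.022), and lost its call without control replicate 1 or *Sox17*-*Erg* replicate 2 (0.14 to 0.15, 2.39 to 2.86). *Col23a1* was not called.

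Whether the effect of *Sox17*-*Erg* changed with time was tested as an interaction. Between Day 3 and 4 weeks the effect differed in 6 chains, each towards a higher effect at 4 weeks, or 14.0% of the 43 tested, against 2.22% of all genes higher and 0.987% lower. The 6 were *Col4a3*, *Col4a4*, *Col10a1*, *Col14a1*, *Col18a1* and *Col28a1*. For *Col4a3* and *Col4a4* the deficit shrank, by 2.73 ± 0.34 and 2.2 ± 0.37 on the log2 scale (adjusted p = 0.0051 and 0.015). For *Col14a1* the excess grew by 2.47 ± 0.37 (adjusted p = 0.01). Between Day 3 and Day 7 edgeR called 0 chains, against 0.0322% of all genes higher and 0.0516% lower, with 11 chains at an unadjusted p under 0.05. DESeq2 called 6 there, all towards a higher effect at Day 7, against 1.25% of all genes in that direction. Between Day 7 and 4 weeks edgeR called 0, against 0.0258% higher and 0.0129% lower, with 6 chains at an unadjusted p under 0.05. DESeq2 called 2 there, both towards a higher effect at 4 weeks, against 0.636% of all genes in that direction. Only the *Col4a3* and *Col14a1* differences held without any library, and the number fell to 2 without control replicate 1 of Day 3, and to 3 without *Sox17*-*Erg* replicate 1 of Day 3 or *Sox17*-*Erg* replicate 2 of 4 weeks.

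The change with time was tested within each condition. From Day 3 to 4 weeks in controls, 7 chains rose and 11 fell, or 16.3% and 25.6%, against 13.9% and 12.6% of all genes. In *Sox17*-*Erg* cultures 11 rose and 6 fell, or 25.6% and 14.0%, against 15.1% and 15.6% of all genes. The shares of rises in controls and of falls in *Sox17*-*Erg* were close to those of all genes. Of 11 fibrillar chains, 6 fell, or 54.5%, 1 rose and 4 were not called in controls, and 5 fell, or 45.5%, 2 rose and 4 were not called with *Sox17*-*Erg*.

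Of the 6 chains of types I, III and V, 4 fell in controls and 3 with *Sox17*-*Erg*, against 12.6% and 15.6% of all genes. *Col1a1* fell by 2.06 ± 0.27 on the log2 scale in controls and by 1.69 ± 0.27 in *Sox17*-*Erg* (adjusted p = 0.0012 and 0.0026), *Col1a2* by 1.37 ± 0.26 and 1.41 ± 0.26 (0.0061 and 0.005), and the minor fibrillar *Col11a1* by 3.20 ± 0.50 and 2.24 ± 0.48 (0.0026 and 0.0088). *Col5a1* fell by 1.5 ± 0.23 and 0.76 ± 0.23 (0.0024 and 0.033). *Col5a2* fell by 1.31 ± 0.19 in controls (0.002) and had a change of -0.52 ± 0.19 in *Sox17*-*Erg* that was not called (0.067). *Col3a1* (0.45 ± 0.47 and 0.29 ± 0.47) and *Col5a3* (-0.74 ± 0.34 and -0.45 ± 0.34) were not called in either condition. In the test of a difference between the 2 time courses edgeR called 0 fibrillar chains, against 2.22% of all genes higher and 0.987% lower. At an unadjusted p under 0.05 edgeR had 3 fibrillar chains. DESeq2 called 2, both higher, against 4.55% of all genes in that direction.

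From Day 3 to Day 7 in controls 7 chains rose and 3 fell, or 16.3% and 7.0%, against 4.7% and 4.06% of all genes, and in *Sox17*-*Erg* 4 rose and 0 fell, or 9.3% and 0.0%, against 2.04% and 1.38%. There edgeR had 1 fall at an unadjusted p under 0.05 and DESeq2 called 0 falls. From Day 7 to 4 weeks edgeR called 0 in controls, against 0.174% of all genes higher and 0.219% lower, with 16 chains at an unadjusted p under 0.05. DESeq2 called 1 rise and 11 falls there, against 1.96% and 2.79% of all genes by DESeq2. In *Sox17*-*Erg* 2 rose and 3 fell over that interval, or 4.7% and 7.0%, against 1.15% and 0.671%.

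Outside the fibrillar class, *Col4a3* rose by 2.61 ± 0.23 in controls and 5.34 ± 0.28 in *Sox17*-*Erg* (adjusted p = 0.00026 and 5.1e-05). *Col18a1* fell by 1.15 ± 0.31 in controls and rose by 1.31 ± 0.31 in *Sox17*-*Erg* (0.024 and 0.013). *Col6a3* rose by 1.54 ± 0.34 in controls (0.012) and changed by -0.13 ± 0.34 in *Sox17*-*Erg*, and the difference between these, -1.67 ± 0.48, was not called (0.11). *Col4a1* fell by 0.86 ± 0.24 in controls (0.028) and changed by -0.08 ± 0.24 in *Sox17*-*Erg*, and this difference, 0.78 ± 0.34, was not called either (0.28). Leaving out a library moved the count of chains that rose in controls from 7 to 4 without either Day 3 control, and that in *Sox17*-*Erg* from 11 to 6 or 7 without either Day 3 library and to 7 without replicate 1 of 4 weeks.

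The ratio of 2 chains per transcript length was compared for 9 pairs, most of them chains of 1 trimer. Treatment labels were permuted within time points in a two-sided exact permutation test over all relabelings, whose smallest p is 0.0093, and the p-values were adjusted over the 9 pairs. The *Col1a1* to *Col1a2* log2 ratio was higher in *Sox17*-*Erg* by 0.39 on average (exact permutation p = 0.0093, adjusted p = 0.028). It was 0.46 and 0.53 in the Day 3 controls and -0.31 and -0.09 in the 4-week controls, and was between 0.36 and 0.72 in the 6 *Sox17*-*Erg* libraries. The *Col4a1* to *Col4a2* ratio was higher by 0.19 (exact permutation p = 0.0093, adjusted p = 0.028), at 0.33 and 0.32 in the 4-week controls and 0.62 and 0.50 with *Sox17*-*Erg*. The *Col8a1* to *Col8a2* ratio was higher by 2.87 (exact permutation p = 0.0093, adjusted p = 0.028). When conditions were swapped only within a replicate number, these 3 calls were lost, each at an exact permutation p of 0.031, the smallest those swaps can give, and an adjusted p of 0.094.

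The other 6 pairs did not pass the exact permutation test. The *Col6a3* to *Col6a2* ratio differed by 0.12, 0.11 and -0.79 at the 3 time points (adjusted p = 0.48), and the *Col5a1* to *Col5a2* ratio by -0.15, -0.03 and -0.19 (adjusted p = 0.12). *Col4a1* relative to *Col1a1*, a basement membrane against a fibrillar chain, was at 0.15 and 0.12 in the Day 3 controls and 1.37 and 1.31 in the 4-week controls, and at 0.12 and -0.29 and then 1.74 and 1.22 in *Sox17*-*Erg*, with differences of -0.22, -0.13 and 0.14 between conditions (adjusted p = 0.62).

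**Figure D4:**
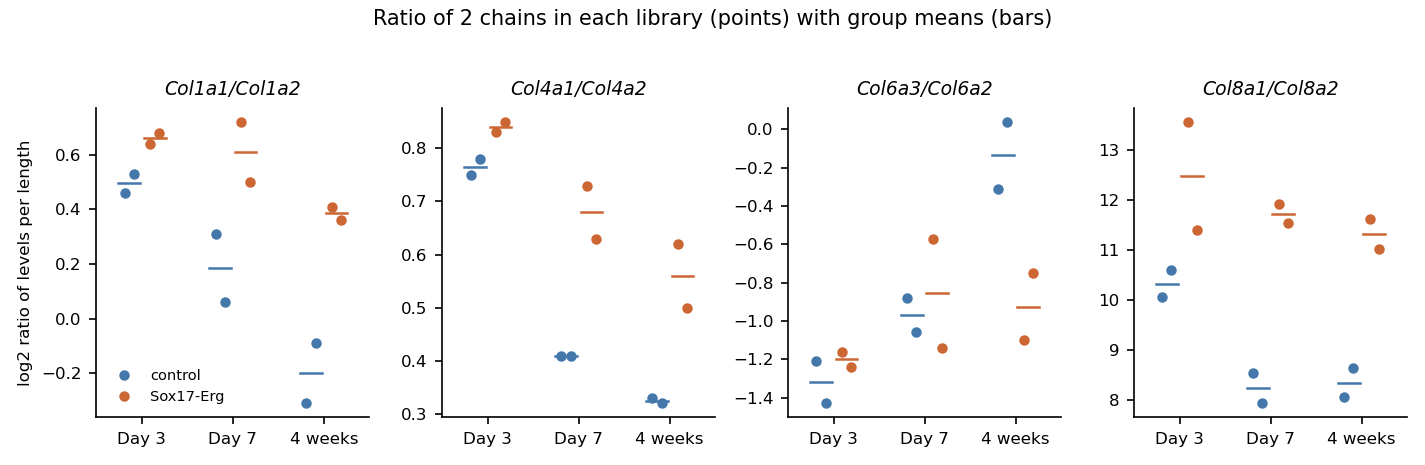
Log2 ratio of the levels per transcript length of 2 chains in each library at Day 3, Day 7 and 4 weeks, on axes that differ between panels and do not start at 0. Points are libraries and bars are group means of 2 libraries. The *Col1a1*/*Col1a2*, *Col4a1*/*Col4a2* and *Col8a1*/*Col8a2* ratios lay above control in each time point, and *Col6a3*/*Col6a2* lay below control at 4 weeks.

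The genes that modify, process and bind collagen were counted in the same fit. Of 10 basement membrane partners, 1, 4 and 5 were higher in *Sox17*-*Erg* at the 3 time points, against 7.19%, 9.48% and 11.9% of all genes. The lower partners numbered 0, 0 and 1, against 5.13%, 7.93% and 11% of all genes. At 4 weeks the laminin chains *Lama5* and *Lama4*, which bind endothelial integrins, were higher (3.53 ± 0.32 and 1.96 ± 0.18, both adjusted p = 0.00012), and *Nid1*, which links laminin to type IV collagen, was lower (-1.21 ± 0.22, adjusted p = 0.0046). *Lama5* was at 44.9 and 38.4 CPM in controls and 545 and 419 CPM with *Sox17*-*Erg*.

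Of 8 collagen receptors, 2, 3 and 3 were higher at the 3 time points, against 7.19%, 9.48% and 11.9% of all genes. The lower receptors numbered 2, 0 and 2, against 5.13%, 7.93% and 11% of all genes. *Itga11* and *Itga2*, subunits of integrins that bind fibrillar collagen, were higher at 4 weeks (2.91 ± 0.25 and 2.60 ± 0.45, adjusted p = 9.9e-05 and 0.0035). *Itga10* and the uptake receptor *Mrc2* were lower (-1.34 ± 0.37 and -0.99 ± 0.23, adjusted p = 0.03 and 0.014).

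Of 19 hydroxylation and folding genes, 0, 2 and 2 were higher, against 7.19%, 9.48% and 11.9% of all genes. The lower ones in this list numbered 1, 2 and 3, against 5.13%, 7.93% and 11% of all genes. The median log2 fold change of the list lay between -0.2 and 0.22. The prolyl 4-hydroxylase subunit *P4ha3* and *P3h4* were higher at 4 weeks (1.40 ± 0.28 and 0.56 ± 0.13, adjusted p = 0.0073 and 0.015), and *P3h2* and *Crtap* of prolyl 3-hydroxylation were lower (-1.49 ± 0.32 and -0.66 ± 0.15, adjusted p = 0.0096 and 0.012). Of 13 cleavage and crosslinking genes, 12 were tested, and 1, 0 and 1 were higher and 0, 1 and 2 lower. The propeptidase *Adamts3* and the enhancer *Pcolce* were lower at 4 weeks (-3.07 ± 0.45 and -1.41 ± 0.32, adjusted p = 0.0014 and 0.013), and *Pcolce2* was higher (1.81 ± 0.38, adjusted p = 0.0086). Of 8 smooth muscle and pericyte markers, 1, 5 and 4 were higher and 0, 0 and 1 lower. Their summed level at 4 weeks was 1020 to 2560 CPM in controls and 4110 to 4270 CPM with the factors. Most of this sum was *Acta2* (548 and 1430 against 2610 and 2240 CPM) and *Tagln* (302 and 928 against 1130 and 1360 CPM). Neither gene was called at 4 weeks (adjusted p = 0.1 and 0.39). Of 8 macrophage markers, 0 were called by edgeR or DESeq2 at any time point and 0 had an unadjusted p under 0.05 in edgeR, with a summed level between 50.4 and 1410 CPM in controls and between 75.0 and 497 CPM in *Sox17*-*Erg*.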

How the data were processed

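Bulk RNAseq of 12 libraries (2 per group) was used. According to the methods, stranded mRNA libraries were read as 2 × 50 bases, converted with bcl2fastq 2.20.0 and trimmed of high GC content with BBDuk (which could lower the counts of GC-rich transcripts), and quantified with Salmon (version not given in the sources used here). The submitters' processing notes name mm10 and DESeq2. The authors deposited estimated counts per gene, already whole numbers and not scaled for library size. Symbols and positions came from GENCODE M21 (GRCm38), which held 35422 of 35727 genes.

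Counts were fitted with edgeR 4.0.16 in R 4.3.3: TMM factors, filterByExpr (minimum count 10, minimum total 15), and quasi-likelihood tests on group means (6 residual degrees of freedom). CPM values are TMM-normalized. SEs are the fold change divided by the root of the F statistic. Within groups, the chi-square divided by its degrees of freedom was 29.7 to 76.0, so all libraries were counted separately.

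The members, classes, pathway and marker lists and named genes were chosen with earlier results of these data known. Named chains were 20 fixed ones, the 3 most changed called chains in each direction per time point, and those with a difference in effect. Of each pathway list the 2 most changed called genes in each direction at 4 weeks were named. Other named chains were chosen after their values were seen. Alternatives were DESeq2 1.42.0, its size factors, other filters, single time points, a GC-content offset, a replicate block, an adjusted p under 0.01 and leaving out each library.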

Additional observations from a re-analysis of the deposited data

Results flagged for a closer look

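The effect of *Sox17*-*Erg* on 6 chains differed between Day 3 and 4 weeks by an interaction test in edgeR. *Col10a1* differed by 9.34 ± 1.10 on the log2 scale (SE, adjusted p = 0.0042), from -0.50 at Day 3 to 8.83 at 4 weeks, and lost the call without control replicate 1 of Day 3, which held 9 of the 10 control counts (7.33, adjusted p = 0.17). *Col4a3* differed by 2.73 ± 0.34 (adjusted p = 0.0051) and *Col14a1* by 2.47 ± 0.37 (adjusted p = 0.01), and both kept the call without any library. *Col4a4* differed by 2.2 ± 0.37 (adjusted p = 0.015) and lost the call without control replicate 1 or either *Sox17*-*Erg* library of Day 3, or without control replicate 1 or *Sox17*-*Erg* replicate 2 of 4 weeks (1.87 to 2.31, adjusted p = 0.053 to 0.067). *Col18a1* differed by 2.47 ± 0.44 (adjusted p = 0.02) and lost the call without any library of Day 3 or 4 weeks (2.42 to 2.57, adjusted p = 0.057 to 0.075). *Col28a1* differed by 2.16 ± 0.49 (adjusted p = 0.05 after rounding) and lost the call without 9 of the 12 libraries, among them each of Day 3, both Day 7 controls, control replicate 2 of 4 weeks and both *Sox17*-*Erg* libraries of 4 weeks (1.85 to 2.41, adjusted p = 0.065 to 0.2).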

How the results depend on the processing

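No called chain changed direction under any alternative. The numbers of chains higher and lower at Day 3 (1 and 8) became 2 and 14 with DESeq2, 3 and 15 without a low-count filter, 2 and 8 with a minimum count of 50, and 1 and 3 at an adjusted p under 0.01. At Day 7 (4 and 11) they became 10 and 14 with DESeq2, 9 and 17 without the filter, 4 and 5 with each time point fitted alone, and 3 and 2 at an adjusted p under 0.01, and at 4 weeks (9 and 11) 4 and 5 at an adjusted p under 0.01. DESeq2 called 9.37% of all genes higher and 8.49% lower at Day 3, and 10.9% and 10.4% at Day 7. DESeq2 found 1 chain with a lower effect at 4 weeks than at Day 3, where edgeR found none. Beyond the construction of the stricter threshold, the cause was not tested. The GC-content offset gave 1 and 8, 4 and 13, and 10 and 12.

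Without 1 library, the numbers of chains higher and lower ran from 0 to 1 and 2 to 9 at Day 3, 3 to 6 and 2 to 12 at Day 7, and 5 to 9 and 5 to 12 at 4 weeks. Those with a higher effect at 4 weeks ran from 2 to 6. Over time they ran from 4 to 7 and 8 to 12 in controls and from 6 to 12 and 4 to 7 in *Sox17*-*Erg*. Among chain pairs, the mean difference ran from -0.22 to 0.15 for *Col4a5*/*Col4a6*, -0.16 to 0.02 for *Col4a1*/*Col1a1*, 0.35 to 0.43 for *Col1a1*/*Col1a2*, 0.17 to 0.21 for *Col4a1*/*Col4a2*, 2.51 to 3.24 for *Col8a1*/*Col8a2* and -0.16 to -0.09 for *Col5a1*/*Col5a2*.

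Replicate numbers are shared between groups in the labels, which do not say what they mark. The deviations from the group means that libraries of 1 number share had correlations of 0.19, 0.3 and 0.17 at Day 3, Day 7 and 4 weeks, taken across genes, which are not independent replicates. With a replicate block the numbers of chains higher and lower were 3 and 11, 4 and 12, and 8 and 12, and 5 chains had a higher and 1 a lower effect at 4 weeks. For the chain pairs, an alternative chosen after seeing the data swapped conditions only within a replicate number. The differences of 0.39, 0.19 and 2.87 for *Col1a1*/*Col1a2*, *Col4a1*/*Col4a2* and *Col8a1*/*Col8a2* then held in 6 of 6 number pairs, each at an exact permutation p of 0.031, the smallest these swaps can give, and an adjusted p of 0.094. With the numbers crossed at 4 weeks, an alternative chosen after seeing the data because control libraries of 4 weeks correlated by -0.1 and -0.11 with those of Day 3 and Day 7, they were 2 and 13, 7 and 16, and 10 and 14.

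With 2 libraries per group an SD is imprecise, and chains with few counts, such as *Col17a1*, leave little room to see a decrease. Depth limits *Col10a1* in controls to ratios with wide intervals.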
